A study of Mus musculus with 4 samples.

Results

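The helper cytokine genes described here are Il2, Il3, Il4, Il5, Il9, Il13, Il21, Ifng, Csf2 and Lif, 10 genes taken by name, with every array probe that the platform annotation assigns to them. Of these, 9 genes had 1 to 3 probes each, 12 probes among the 25697 in the tables, and no probe carried the symbol or gene number of Il2, so Il2 was not analysed here. All samples were splenic regulatory T cells of C57Bl/6 mice aged 8 to 12 weeks, sorted for a green fluorescent reporter of Foxp3. The cells were activated overnight with an antibody to CD3. In the control group the culture also held rat IgG, called isotype here, and in the other group OX86, an antibody that triggers OX40, a costimulatory receptor of the TNF receptor family. Each group had 2 arrays. The labels do not say whether these came from separate cultures or animals, or whether animals were pooled, so the spread behind each p-value is that of these arrays and may be technical.

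Helper cytokines are the secreted signals by which activated CD4 T cells direct other cells. IL-2 and IL-21 act on lymphocytes, IL-4, IL-5, IL-9 and IL-13 belong to type 2 responses, interferon gamma to type 1 responses, IL-3 and GM-CSF (the product of Csf2) to myeloid cells, and LIF to the IL-6 family. Regulatory T cells carry receptors for several of these factors but are known for making little IL-2 and few effector cytokines themselves, and Foxp3 acts as a repressor at several of these genes. In conventional T cells the genes are switched on after T-cell receptor signalling by NFAT, AP-1 and NF-kB factors together with lineage factors such as T-bet and GATA3.

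On these arrays, Il13 and Ifng stood above background on all 4 arrays, Il4 on 3 and Csf2 on 1, while Il3, Il5, Il9, Il21 and Lif were above background on none. Of all 16593 genes with a probe, 45.2% were above background on all 4 arrays and 35.2% on none. Even the detected genes were close to the limit, with intensities at most 1.24 times the lowest intensity called detected on the same array. These intensities had no background subtracted, which compresses the ratio. None of the tested probes passed the test of OX86 against isotype.

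The detected genes Il4 and Il13 lie side by side on chromosome 11 with the undetected Il5 beyond Rad50, and Ifng lies on chromosome 10. Their promoters are shown because these genes divide the list into those above and below background. Each line gives the 250 bases before the transcription start, from RefSeq on build GRCm38.p6, written 5′ to 3′ along the gene's own strand. Capitals mark the NFAT core GGAAA or its complement TTTCC.
Ifng (chr10:118440796-118441045, + strand): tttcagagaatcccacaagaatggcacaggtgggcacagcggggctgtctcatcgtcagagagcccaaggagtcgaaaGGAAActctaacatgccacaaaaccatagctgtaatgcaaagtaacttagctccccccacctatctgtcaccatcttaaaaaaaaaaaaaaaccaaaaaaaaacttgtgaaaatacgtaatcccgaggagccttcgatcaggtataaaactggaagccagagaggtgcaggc
Il13 (chr11:53634703-53634952, - strand): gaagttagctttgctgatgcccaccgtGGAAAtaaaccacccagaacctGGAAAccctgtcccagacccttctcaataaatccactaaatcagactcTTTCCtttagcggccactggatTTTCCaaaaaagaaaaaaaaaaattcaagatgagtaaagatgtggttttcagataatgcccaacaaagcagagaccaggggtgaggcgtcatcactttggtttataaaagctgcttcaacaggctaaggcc
Il4 (chr11:53618666-53618915, - strand): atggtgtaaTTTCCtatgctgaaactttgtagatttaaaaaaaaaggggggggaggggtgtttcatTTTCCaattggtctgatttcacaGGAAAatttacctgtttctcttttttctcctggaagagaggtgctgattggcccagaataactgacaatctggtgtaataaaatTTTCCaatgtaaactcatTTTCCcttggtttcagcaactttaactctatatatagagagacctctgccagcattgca
Il5 (chr11:53720544-53720793, + strand): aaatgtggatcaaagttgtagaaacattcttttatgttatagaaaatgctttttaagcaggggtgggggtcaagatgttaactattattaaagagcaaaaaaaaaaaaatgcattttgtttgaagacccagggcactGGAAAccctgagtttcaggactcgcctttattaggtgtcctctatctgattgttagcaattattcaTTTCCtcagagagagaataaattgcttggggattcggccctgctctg

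All 10 cytokine genes, Il2 included, matched a promoter in that table, and all 10 held at least 1 NFAT core on either strand, as did 55.6% of the 32851 promoter windows of the same length. Il4 held 5 such matches and Il13 held 4, where 0.39% of all windows held 5 or more and 1.59% held 4 or more. Il5 held 2 matches and Ifng 1. The AP-1 sequence TGANTCA was found in 2 of the 10 promoters, those of Il9 and Lif, against 6.75% of all windows. The GATA sequence AGATAA was found in 3 of the 10, those of Il3, Il13 and Csf2, against 9.99%. TATAAA was found in 3, those of Il2, Il13 and Ifng, against 12.4%. These matches count letters on both strands. No NFAT match overlapped an AP-1 match, which only the Il9 and Lif promoters could have shown. The undetected genes Il9 and Il21 held 3 NFAT matches each, so the number of matches did not separate detected from undetected genes.

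Detection was read from the deposited detection p-values, which compare each probe with the negative control beads of its own array. Those values moved in steps of 1 in 798, so each can be read as the number of 798 control beads at or above the probe. A control bead here means 1 negative control bead type, not a single bead. A probe was called detected at a p under 0.05. Detected probes made up 45.9% (isotype 2) to 53.2% (isotype 1) of all probes per array, and the lowest detected intensity was 302.2 on isotype 2 and 315.7 to 320.4 on the others. Isotype 2 stood apart, with correlations of 0.968 to 0.972 with the other arrays across tested probes, against 0.981 to 0.985 among the other pairs, genes being no independent replicates. All 8 genes listed as markers of regulatory T cells were detected on all 4 arrays, beside 45.2% of all genes. They were Foxp3, Il2ra, Ctla4, Ikzf2, Tnfrsf18, Cd4, Cd3e and Cd3g. Tnfrsf4, which encodes OX40, was also detected on all 4 arrays. Cd4, Cd3e and Cd3g are shared by other T cells, and the Il2ra values are uncertain, as described below. The list does not by itself separate regulatory from other activated T cells.

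Counted by the probe with the highest mean intensity, 2 of 9 cytokine genes were detected on all 4 arrays, 2 on some and 5 on none. Over all genes with a probe the shares were 45.2%, 19.6% and 35.2%. By probe, 2 of 12 were detected on all 4 arrays and 7 on none, where 40.8% and 39.6% of all probes were. Per array, 3 of the 12 cytokine probes were detected on isotype 2 and 4 of 12 on each of the other arrays. In bulk RNA, fewer cells making a cytokine and less RNA per cell cannot be told apart.

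**Figure D1:**
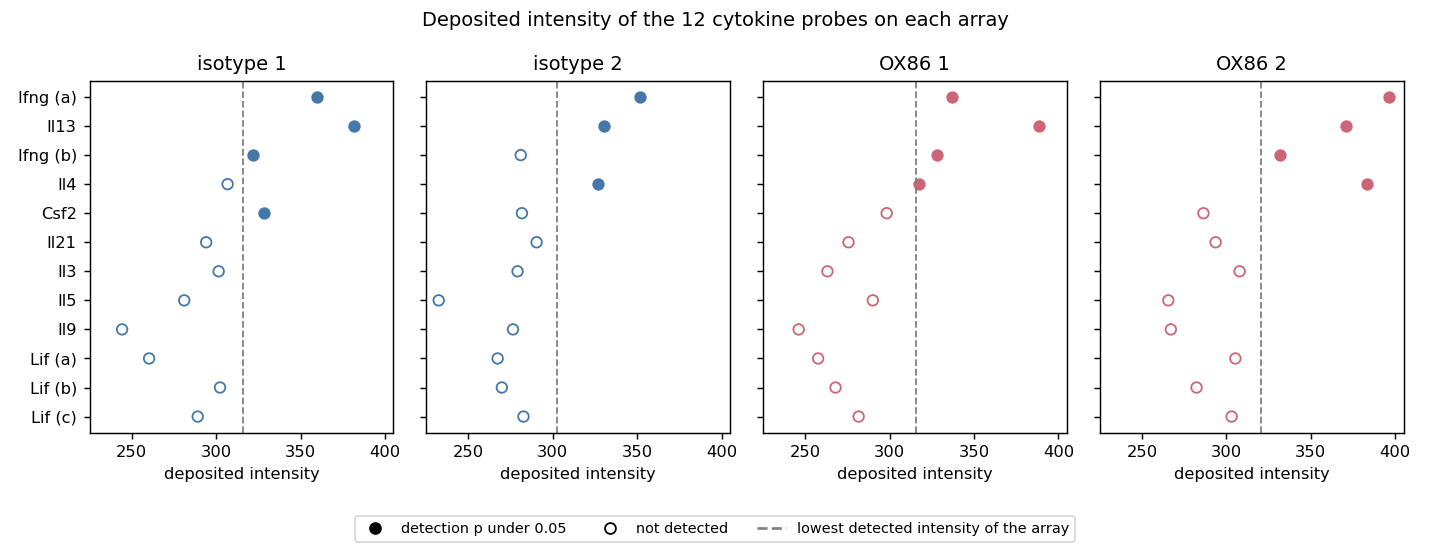
Deposited intensity (x axis, linear, no background subtracted) of each of the 12 cytokine probes (y axis) on the 4 arrays. Filled points had a detection p under 0.05, open points did not, and the dashed line is the lowest detected intensity of that array; Ifng (a) and (b) are probes ILMN_2685712 and ILMN_2791459, and Lif (a), (b) and (c) are ILMN_1234792, ILMN_3137287 and ILMN_3137291. The Il13 and Ifng (a) points lie right of the line on all 4 arrays.

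Il13 encodes IL-13, a type 2 cytokine that acts on epithelium and macrophages. Its probe had an intensity of 381.9 on isotype 1, 330.5 on isotype 2, 388.4 on OX86 1 and 371.0 on OX86 2. All 4 values lay above the limit and the groups overlapped. On isotype 1 and OX86 1 it was brighter than all 798 control beads, and on isotype 2 and OX86 2 it was matched by 3 and 4 of them. A count of 0 of 798 allows a share of up to 0.376%, for counting error only. Of the 9 cytokine genes, Il13 alone was detected on all 4 arrays at a p under 0.01. In the authors' processed table Il13 had 356.0, 376.4, 387.6 and 360.1 on isotype 1, isotype 2, OX86 1 and OX86 2.

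Ifng encodes interferon gamma, the defining cytokine of type 1 helper cells, and had 2 probes. The brighter probe read 359.9 and 351.8 with isotype and 336.9 and 396.4 with OX86, with detection p-values of 0.00501, 0, 0.015 and 0.00125 for isotype 1, isotype 2, OX86 1 and OX86 2. It was thus detected throughout, although at a p under 0.01 it was detected on 3 of the 4 arrays. The dimmer probe read 321.9 and 281.0 with isotype and 328.2 and 332.1 with OX86, and was not detected on isotype 2, where 194 of 798 control beads were at or above it. Both Ifng probes were therefore above background on both OX86 arrays and on isotype 1.

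Il4, the type 2 cytokine that drives GATA3-dependent helper differentiation, had an intensity of 306.8 on isotype 1, 326.9 on isotype 2, 317.3 on OX86 1 and 383.5 on OX86 2. Its detection p-values were 0.0915, 0.00376, 0.0464 and 0.00251 in that order, so isotype 1 missed the limit and OX86 1 passed it narrowly. The 2 arrays numbered 2 were the clearly detected ones, 1 in each group. The processed table had 300.8, 370.4, 316.1 and 371.9 on the same arrays.

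Csf2, which encodes the myeloid growth factor GM-CSF, had an intensity of 328.5 on isotype 1, 281.7 on isotype 2, 298.3 on OX86 1 and 286.5 on OX86 2. Only the isotype 1 value was detected. Its detection p was 0.0251, and those of the others were 0.233, 0.145 and 0.35. At a detection p under 0.01 Csf2 was on no array, so its call rests on isotype 1 and on the limit chosen. Its neighbour Il3, a growth factor of haematopoietic progenitors and mast cells, read 301.5 and 279.1 with isotype and 263.2 and 307.9 with OX86, with detection p-values of 0.109 or more.

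The 7 probes detected on no array, those of Il3, Il5, Il9, Il21 and Lif, had intensities of 232.4 to 307.9 and detection p-values of 0.109 to 0.947. Il5, which supports eosinophils, read 281.1 and 232.4 with isotype and 290.1 and 265.7 with OX86, and on isotype 2 there were 756 of the 798 control beads at or above it. Il9, a mast cell and lymphocyte factor, read 244.3 and 276.4 with isotype and 246.2 and 267.2 with OX86. On isotype 1 and OX86 1, 722 and 725 control beads were at or above the Il9 probe. These are readings at background, and their order carries no information on level.

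Il21, the cytokine of follicular helper cells, read 294.1 and 290.4 with isotype and 275.7 and 293.7 with OX86. Its detection p-values were 0.202, 0.137, 0.481 and 0.239 for isotype 1, isotype 2, OX86 1 and OX86 2. Lif had 3 probes, all undetected on all 4 arrays, with readings of 257.7 to 305.4, 268.0 to 302.3 and 281.7 to 303.2. The Lif reading nearest the limit was that of ILMN_3137287 on isotype 1, where 101 control beads were at or above it. A probe not above the control beads sets no lower limit on the transcript, and absence of these cytokines cannot be read from it.

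**Figure D2:**
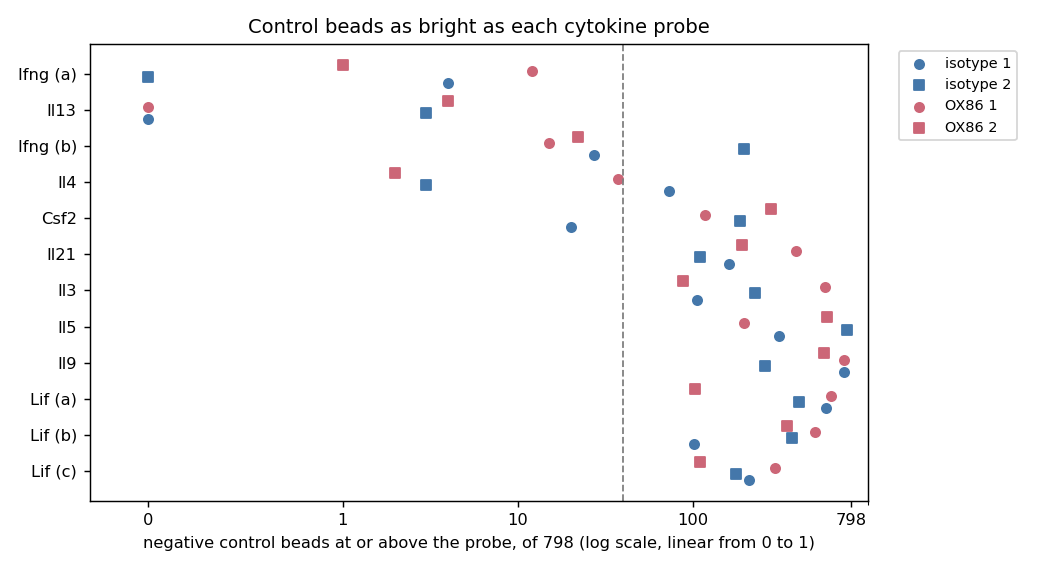
Number of the 798 negative control beads (bead types) at or above each cytokine probe (x axis, log scale above 1 and linear from 0 to 1), for each probe (y axis) and array (blue isotype, red OX86, circles replicate 1, squares replicate 2). Points left of the dashed line have a detection p under 0.05; Il5, Il9, Il21, Il3 and all Lif points lie right of it, from 87 beads (Il3 on OX86 2) to 756 beads (Il5 on isotype 2), and probe letters are ordered by probe number.

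The comparison of OX86 with isotype asked whether engaging OX40 during activation changed these transcripts. A probe was tested if 2 or more of the 4 arrays detected it. This kept 4 of 12 cytokine probes, from 3 genes, where it kept 51.9% of all probes, and the other 8 probes were given no fold change. Of 13338 probes tested in limma with Benjamini-Hochberg adjustment, 0 passed (0%), and 444 (3.33%) had an unadjusted p under 0.05. None of the 4 cytokine probes was among either. Normalized values below are log2 signals after background correction with an offset of 16, and differences are OX86 minus isotype on that scale, which understates changes near background.

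Il13 had log2 signals of 6.59 and 6.87 with isotype and 7.00 and 6.65 with OX86. The group means were 6.73 ± 0.20 and 6.83 ± 0.25 (SD, n = 2 each), and the groups overlapped. The log2 difference was 0.10 (SE 0.23, 95% interval -0.47 to 0.66, limma with Benjamini-Hochberg adjusted p = 0.9999). Without isotype 2 it was 0.235, and without isotype 1 or OX86 1 it was -0.043 or -0.078.

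Il4 had log2 signals of 5.56 on isotype 1, 6.79 on isotype 2, 5.87 on OX86 1 and 6.81 on OX86 2. The groups overlapped almost fully, with means of 6.17 ± 0.87 and 6.34 ± 0.66 (SD, n = 2 each). The log2 difference was 0.17 (SE 0.50, 95% interval -1.06 to 1.40, limma with Benjamini-Hochberg adjusted p = 0.9999). That interval was the widest of the 4, and the value was 0.785 without isotype 2 and -0.450 without isotype 1. Within isotype, array 2 exceeded array 1 by 1.24, and within OX86 by 0.94, both larger than the difference between the groups.

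The brighter Ifng probe, ILMN_2685712, had log2 signals of 6.33 on isotype 1, 7.30 on isotype 2, 6.26 on OX86 1 and 6.96 on OX86 2. Here too both arrays numbered 2 were above both numbered 1, by 0.97 within isotype and 0.69 within OX86, an order found in 18% of tested probes. Its log2 difference was -0.21 (SE 0.40, 95% interval -1.20 to 0.79, limma with Benjamini-Hochberg adjusted p = 0.9999), turning to 0.279 without isotype 2 and to 0.141 without OX86 1.

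The dimmer Ifng probe, ILMN_2791459, had 5.80 and 5.41 with isotype and 6.09 and 6.04 with OX86. Here the groups did not overlap, as in 26.9% of tested probes. The log2 difference was 0.46 (SE 0.22, 95% interval -0.09 to 1.01, unadjusted p = 0.0839, Benjamini-Hochberg adjusted p = 0.9999 in limma), and 0.266 without isotype 2, whose value was below detection. The 2 Ifng probes thus had differences of opposite sign, and neither passed. By brightest probe, 2 of the 3 tested cytokine genes were higher in mean with OX86, beside 51% of all tested probes, and the median log2 difference of the 3 genes was 0.10, beside 0.005 over all tested probes. The exact permutation test of 2 arrays against 2 cannot give a two-sided p under 0.333.

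**Figure D3:**
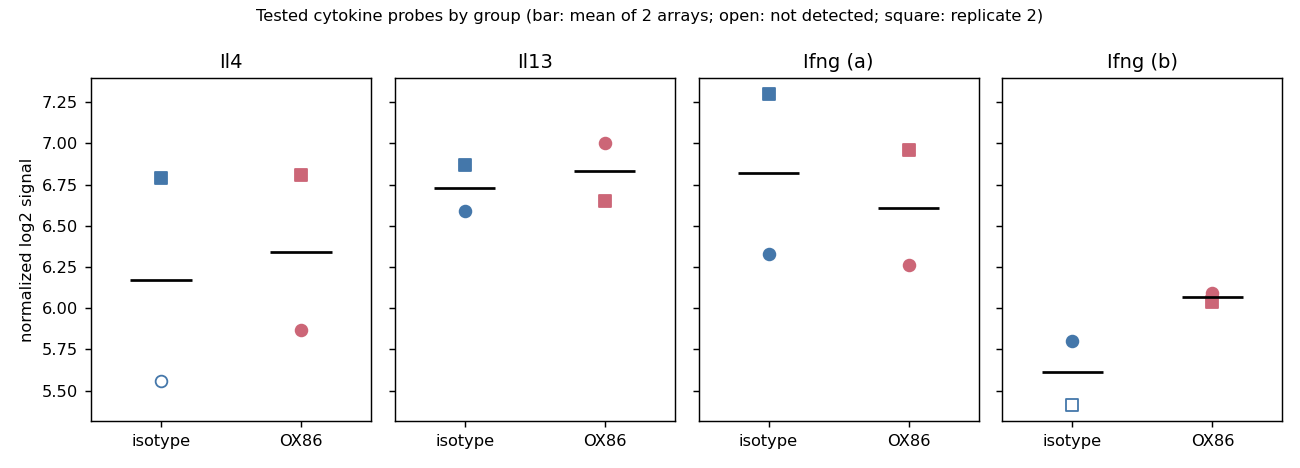
Normalized log2 signal (y axis) of the 4 tested cytokine probes in the isotype and OX86 arrays (x axis). Circles are replicate 1, squares replicate 2, open symbols arrays where the probe was not detected, and bars the mean of the 2 arrays. In Il4 and Ifng (a), probe ILMN_2685712, both squares lie above both circles, and in Ifng (b), probe ILMN_2791459, both OX86 arrays lie above both isotype arrays.

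Of genes encoding receptors for these cytokines, 7 of the 15 with a probe were detected on all 4 arrays, beside 45.2% of all genes. They were Il2ra and Il2rb (IL-2 receptor chains), Il3ra, Il21r, Ifngr1 and Ifngr2 (interferon gamma receptor chains) and Il6st (the gp130 chain shared by the IL-6 family). Il13ra1 and Csf2ra were detected on 2 arrays each, and Il5ra, Il9r, Il13ra2, Csf2rb, Csf2rb2 and Lifr on none, beside 35.2% of all genes. Il3ra and Il21r were thus detected where Il3 and Il21 were not. Il21r was itself near the limit, with intensities of 324.0 to 349.3 and a detection p under 0.01 on 1 array. Of 9 receptor genes tested, 3 were higher and 6 lower in mean with OX86, where 51% of all tested probes were higher. Of these 9, 0 passed, and the median log2 difference was -0.08, beside 0.005 over all tested probes. Ifngr2 had log2 signals of 13.64 and 13.65 with isotype and 12.97 and 13.87 with OX86, a difference of -0.22 (95% interval -1.03 to 0.58). Ifngr1 differed by -0.08 (-0.61 to 0.46), Il6st by 0.34 (-0.47 to 1.15) and Il2ra by -0.02 (-0.58 to 0.54). The Il2ra probe had intensities within 1.08% of those of the Il10 probe on every array, so the values of both genes are uncertain.

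Of other cytokines of T cells, 10 of the 17 genes with a probe were detected on all 4 arrays, beside 45.2% of all genes. They were Il10, Ebi3 and Tgfb1, all of suppressor function, Tnf, Lta, Ltb, Tnfsf11 and Fasl of the TNF family, Il16 and Osm. Il6 was detected on 3 arrays, Il17a on 2, Il12a and Il24 on 1 each, and Il17f, Il22 and Il27 on none. Of 12 genes tested, 6 were higher and 6 lower with OX86, where 51% of all tested probes were higher. Of these 12, 0 passed, and the median log2 difference was 0.01, beside 0.005 over all tested probes. The values of the brightest were 0.02 (95% interval -0.48 to 0.52) for Il16, a chemoattractant of CD4 cells, 0.15 (-0.39 to 0.69) for Ltb, which shapes lymphoid tissue, -0.01 (-0.57 to 0.55) for Il10 and -0.20 (-0.70 to 0.31) for Osm, of the same family as LIF.

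Of transcription factors known to regulate these cytokine genes, 15 of 18 with a probe were detected on all 4 arrays, beside 45.2% of all genes. Among the 15 were Gata3, Maf, Batf, Irf4, Junb, Nfatc1, Nfatc2, Nfatc3, Rel and Rela. Not every factor listed drives these genes. Tbx21, which encodes T-bet, was detected on isotype 2 alone, with a detection p of 0.0113, and Stat5b and Spi1 on none. Of 15 tested, 11 were higher and 4 lower in mean with OX86, where 51% of all tested probes were higher. Of these 15, 0 passed, and the median log2 difference was 0.07, beside 0.005 over all tested probes. The NF-kB subunit gene Rela differed by -0.10 (95% interval -0.58 to 0.37), Nfatc1 by 0.06 (-0.41 to 0.54), Bcl6 by -0.13 (-0.64 to 0.39) and Stat4 by -0.18 (-0.66 to 0.30).

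Genes of factors linked to the control of cytokine genes in regulatory T cells were detected on all 4 arrays for 7 of 9. These were Foxp3, Ikzf1, Ikzf2, Ikzf4, Runx1, Cbfb and Satb1, and the share over all genes was 45.2%. The list is not limited to repressors of these genes. Prdm1 was detected on OX86 2 alone, and Runx3 on none. Of 7 tested, 4 were higher and 3 lower with OX86, where 51% of all tested probes were higher. Of these 7, 0 passed, and the median log2 difference was 0.06, beside 0.005 over all tested probes. With the Cbfb probe that has the highest mean intensity in place of the one with the highest mean log2 signal, 5 were higher and 2 lower. Foxp3 had log2 signals of 12.75 and 12.76 with isotype and 12.71 and 12.95 with OX86, a difference of 0.08 (95% interval -0.42 to 0.58). Satb1, a chromatin organiser, differed by -0.09 (-0.72 to 0.54), Cbfb, the partner of Runx proteins, by -0.08 (-0.55 to 0.40) at the probe with the highest log2 signal and 0.09 (-0.41 to 0.60) at the other probe, and Ikzf2, which encodes Helios, by 0.06 (-0.62 to 0.74).

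**Figure D4:**
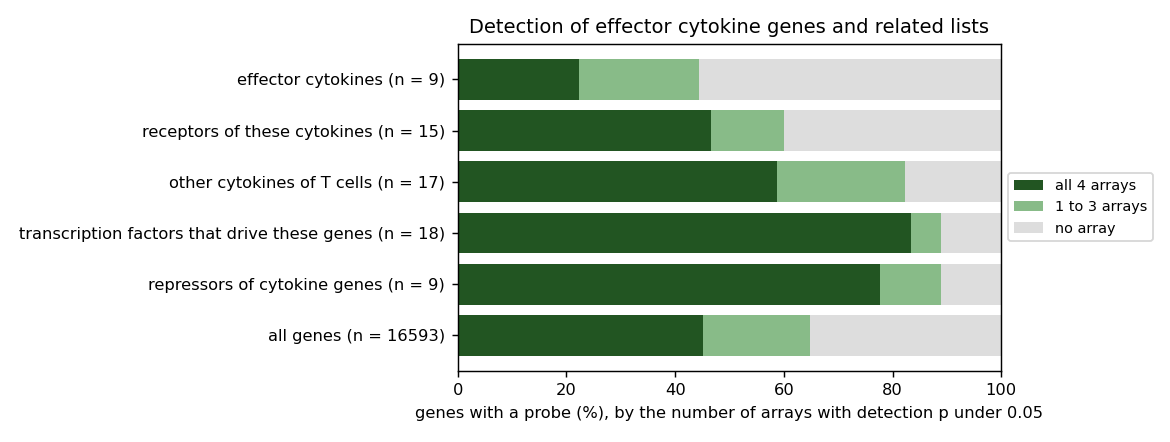
Share of genes with a probe (x axis, percent) that were detected at p under 0.05 on all 4 arrays, on 1 to 3 or on none, for the effector cytokines, 4 related lists and all genes (y axis, with the number of genes). The effector cytokines had 2 of 9 genes detected on all 4 arrays, against 10 of 17 for other cytokines of T cells and 15 of 18 for the transcription factors. The list labels are broad, and not every gene under them drives or represses these cytokine genes.

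On chromosome 11 the cytokine genes from Il4 to Il3 lie among 11 other protein-coding genes when 2 flanking genes are taken on each side, a choice made after the cytokine values had been seen. Of the 10 such neighbours with a probe, 4 were detected on all 4 arrays, 4 on 3 arrays and 2 on none. The shares over all genes were 45.2% on all 4 arrays, 19.6% on 1 to 3 and 35.2% on none. Rad50, a DNA repair gene between Il13 and Il5, Kif3a, a kinesin gene beside Il4, Irf1, an interferon response factor beyond Il5, and the carnitine transporter gene Slc22a5 had a detection p of 0 on each array. Slc22a21 and Slc22a4 were detected on none. Septin8, Kif3a, Il4, Il13 and Rad50, in that order, were each detected on 3 or 4 arrays, and the next gene, Il5, on none. Whether such an order is particular to this region was not tested. Around Il21 on chromosome 3, its neighbour Cetn4 was detected on all 4 arrays, Bbs12 on 3 and Adad1 on none.

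**Figure D5:**
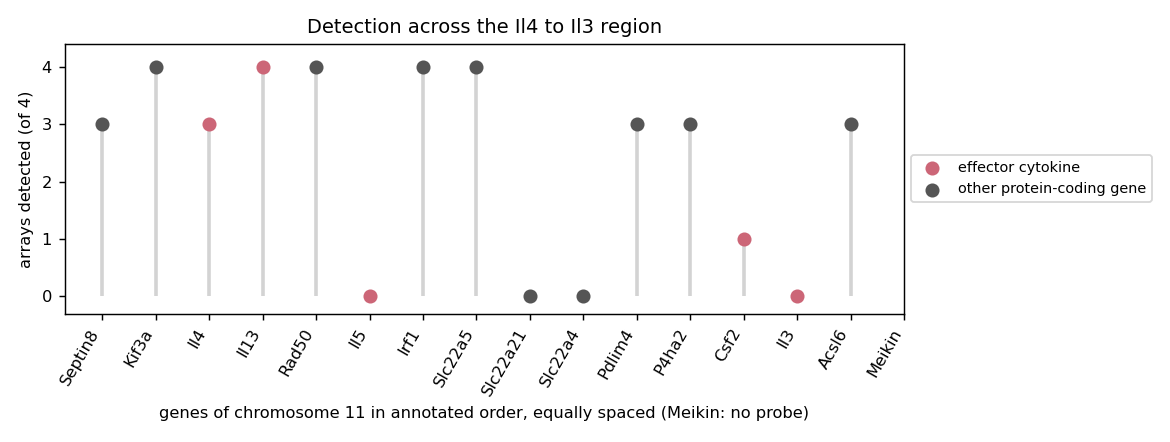
Number of arrays (y axis, of 4) on which each protein-coding gene from Septin8 to Meikin on chromosome 11 was detected, in annotated order and equally spaced (x axis). Effector cytokine genes are red and others grey; Il4 stands at 3, Il13 at 4, Csf2 at 1, and Il5 and Il3 at 0, while Meikin had no probe.

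Markers of other cells that can make these cytokines were read beside the low Il4, Il13 and Ifng signals, and their part in those signals was not tested. For the counts below, the shares over all genes were 45.2% on all 4 arrays and 35.2% on none. Of markers of mast cells and basophils, cells known to make IL-4 and IL-13, 0 of 7 with a probe were detected on all 4 arrays, and Mcpt8, Mcpt4, Fcer1a and Ms4a2 on none. Cpa3 and Prss34 were detected on 2 arrays each, and Tpsab1 on 1. The summed linear signal of these 7 was 280.5 to 320.7 on the isotype arrays and 294.3 to 316.6 on the OX86 arrays. All sums here include undetected probes, which keep a background signal, so sums of different lists cannot be compared. Of type 2 innate lymphoid markers, Rora, Gata3 and Il17rb were detected on all 4 arrays, genes that T cells can also express, with sums of 2870 to 3228 and 3082 to 3799. Il17rb, an IL-25 receptor chain, had log2 signals of 5.93 and 6.35 with isotype and 6.62 and 7.07 with OX86, a difference of 0.70 (95% interval 0.06 to 1.35, unadjusted p = 0.0372, adjusted p = 0.9999 in limma). Of NK-cell and CD8 T-cell markers, from cells known to make interferon gamma, Cd8b1, Klrd1 and Prf1 were detected on all 4 arrays and Cd8a, Ncr1, Klrb1c and Gzmb on none, with sums of 23630 to 23770 and 19950 to 26040. Those sums are nearly all Prf1, the perforin gene, with log2 signals of 14.48 and 14.46 with isotype and 14.21 and 14.61 with OX86. They thus describe Prf1 and not the list. Cd8b1 had 9.57 and 9.79 with isotype and 9.61 and 9.54 with OX86, while Cd8a was undetected. B-cell markers were detected on all 4 arrays for 2 of 5 (Cd79a and Cd79b), with sums of 314.2 to 371.8 and 342.5 to 366.8. The B-cell gene Ms4a1, detected on 3 arrays, differed by 0.81 (95% interval 0.13 to 1.49, unadjusted p = 0.0267, adjusted p = 0.9999 in limma). Il17rb and Ms4a1 are given because only they, of the marker genes, had an unadjusted limma p under 0.05. Of all tested probes 3.33% did. For both genes the groups did not overlap, as in 26.9% of tested probes. Myeloid markers were detected on all 4 arrays for 2 of 7 (Cd74 and S100a8), with sums of 870.4 to 1058 and 1103 to 1212. Lyz2, Cd14 and Adgre1 were detected on 1 array each, and Itgax and Itgam on none. The 2 tested genes had differences of opposite sign. Cd74 differed by 0.56 (95% interval -0.12 to 1.23) and S100a8 by -0.16 (-0.69 to 0.38). Of the markers chosen for conventional activated CD4 cells, Il7r was detected on all 4 arrays and Cd40lg on isotype 1 alone, with sums of 4229 to 6467 and 4797 to 5782.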

How the data were processed

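Total RNA had been amplified into biotinylated cRNA and hybridised to Illumina bead arrays, per the labels. The submitters' processing notes name BeadStudio, without a version, and further steps remain unstated. The deposited table held an intensity per probe on a linear scale with no background subtracted, and a deposited detection p-value per probe. The authors' processed table held linear intensity values that kept the rank of the deposited ones and nearly all differed by at most 0.123% from quantile-normalized values computed from them. They served as an alternative. Their medians were 314.4 to 314.9, so scale was linear and not centred.

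Signals were corrected with neqc in limma 3.58.1 (R 4.3.3), which infers the negative control beads from the detection p-values, adds an offset of 16, applies quantile normalization and takes log2. Probes with a detection p under 0.05 on at least 2 arrays (13338 of 25697, 51.9%) were fitted with lmFit and eBayes, two-sided, without covariates, on 2 residual and 3.68 prior degrees of freedom, with Benjamini-Hochberg adjustment over all of them. Gene names came from the platform annotation, which gave 23978 probes a symbol. Detection of a gene was read from its probe with the highest mean intensity, and differences from its tested probe with the highest mean normalized log2 signal. Among the listed genes these were different probes for Cbfb alone. All cytokine probes are named, and of each related list up to 4 tested genes with the highest mean signal, beside those listed by detection. The differences of the marker genes Il17rb and Ms4a1 were given because of their unadjusted p. Foxp3, Il2ra and Tnfrsf4 were named as checks. Sums of marker signals are of linear normalized values over each gene's brightest probe. The cytokine genes, the lists and the tests were chosen with earlier results of these data known. Median scaling, no background correction, other filters and offsets, a mean-variance trend, a replicate block and leaving out each array were alternatives. The replicate numbers of the labels do not say what they mark. Probe sequences were not used here, so cross-hybridisation was not assessed. The number of arrays limits the precision.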

Additional observations from a re-analysis of the deposited data

How the results depend on the processing

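In limma 0 probes passed under each of 13 alternatives, with 102 probes (median scaling) to 1540 (without isotype 1) at an unadjusted p under 0.05 and a smallest adjusted p of 0.3272, without isotype 1. No cytokine probe passed under any of them. Leaving out 1 array at a time moved the log2 difference of Il4 between -0.450 and 0.785, of Il13 between -0.078 and 0.270, of the brighter Ifng probe between -0.689 and 0.279 and of the dimmer between 0.266 and 0.660. The sign turned for Il4 without isotype 1 (-0.450) or OX86 2 (-0.300), for Il13 without isotype 1 (-0.043) or OX86 1 (-0.078) and for the brighter Ifng probe without OX86 1 (0.141) or isotype 2 (0.279). A group then kept a lone array, assumed to vary like the other group. The other settings turned no sign, but the other filters, the replicate block and the mean-variance trend cannot change the difference itself. Without background correction the 4 differences were 0.039, 0.029, -0.068 and 0.105 for Il4, Il13, the brighter and the dimmer Ifng probe. Median scaling moved the median of all tested probes to 0.118 and gave 0.369, 0.198, -0.047 and 0.411.

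The number of tested cytokine genes higher with OX86 was 2 of 3, 1 of 2 over probes detected on all 4 arrays, 3 of 3 with the probes of a gene averaged, which turned Ifng, 3 of 9 with no filter, and 0 to 3 with 1 array left out. Cytokine genes detected on all 4 arrays numbered 1 (Il13) at a detection p under 0.01 and 1 when every probe of a gene had to be detected, and 2 to 3 with 1 array left out. Those detected on none numbered 5 to 6 with 1 array left out.

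Same-numbered arrays deviated from their group means with a correlation of 0.0655 over 13338 probes, so the numbers are not taken to pair the arrays. With the replicate block, 0 probes passed (522 at an unadjusted p under 0.05). Because both groups hold the same replicate numbers, the block cannot change a difference between group means. The 4 differences (0.168, 0.096, -0.205 and 0.463) and the 2 of 3 genes higher were thus bound to stay the same. The interval of Il4 narrowed from -1.06 to 1.40 without the block to -0.39 to 0.72 with it. That of the brighter Ifng probe narrowed from -1.20 to 0.79 to -0.75 to 0.34. Those of Il13 and the dimmer Ifng probe widened slightly, to -0.53 to 0.72 and -0.10 to 1.02. Signals at most 1.24 times the detection limit, with no background subtracted, bound what these arrays can resolve for the cytokine genes.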
